A study of Drosophila melanogaster with 12 samples.

Results

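The genes of the cytoplasmic ribosomal proteins were followed in Drosophila melanogaster ovaries whose germline expressed a hairpin against Sfmbt. They were taken from the gene table by name, as symbols that begin with RpL or RpS and a digit, with RpLP0, RpLP1 and RpLP2 added, and a mean raw count of at least 10 over the 6 RNA libraries. By name, 91 of the 17768 genes in the table fitted. The copies RpL22, RpL22-like, RpS5a, RpS5b, RpS10a, RpS10b, RpS19a and RpS19b were set aside by the rule, and 4 more genes were below the count minimum, which left 79 genes: 46 of the large subunit, 30 of the small subunit and 3 of the stalk. The count minimum runs over both groups, and RpL37-2 passed it only through its reads in Sfmbt RNAi (mean raw count 63.7, against 0.667 in mCherry RNAi).

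Ribosomal proteins clothe the ribosomal RNA of the large and the small subunit, and the acidic stalk proteins on the large subunit recruit the elongation factors. Most of the proteins are needed in equal amounts, and in flies a reduced dose of many ribosomal protein genes gives the Minute phenotype of slow growth and thin bristles. In the ovary, nurse cells make the ribosomes that load the egg, and germline stem cells depend on ribosome production to leave the stem cell state.

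Ovaries labelled Sfmbt RNAi carried the germline driver nanos-Gal4 with the UAS-Sfmbt RNAi line TRiP.HMS00473, and ovaries labelled mCherry RNAi, the negative control, carried the same driver with a UAS-mCherry RNAi line. Sfmbt is a subunit of the Polycomb complex PhoRC, together with the DNA-binding protein Pho. Both groups came from females 2 days old, and each had 3 biological replicates of polyA RNA from whole ovaries, so somatic follicle cells were sequenced along with the germline. ChIP-seq (anti-Pho in yw ovaries; anti-GFP in GFP-Sfmbt knock-in ovaries and in untagged Oregon-R ovaries) had 2 replicates a group, and enters only through the peak table of the authors. In bulk RNA, fewer cells of a type and less RNA per cell cannot be told apart.

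Counted fragments per library ran from 34057506 to 47315104 in Sfmbt RNAi and from 36660629 to 51297961 in mCherry RNAi. Sfmbt itself had 43.8, 43.8 and 36.7 CPM in Sfmbt RNAi replicates 1 to 3, against 146.1, 122.4 and 123.2 CPM in mCherry RNAi replicates 1 to 3 (log2 fold change −1.66 ± 0.11 SE, adjusted p = 0.000119, edgeR quasi-likelihood test). CPM are TMM-scaled counts relative to the library size. Genes were called at a Benjamini-Hochberg adjusted p under 0.05 over all 9667 genes tested. Of 9 germline markers tested, 5 rose and 1 fell, beside 15.2% of all genes tested that rose and 19.4% that fell. The 9 chorion genes, which late follicle cells express, all fell, with summed levels of 7547 to 20193 CPM in Sfmbt RNAi and 35270 to 50570 CPM in mCherry RNAi. Of 7 vitelline membrane genes and 3 yolk protein genes, 0 were called. Of 6 early follicle and somatic gonad genes, 1 rose and 1 fell. Digestive enzyme genes summed to 1.44 to 273 CPM in Sfmbt RNAi and 331 to 3075 CPM in mCherry RNAi. These sums varied widely within each group, and 0 of the 18 genes tested were called. The part of the chorion and gut RNA in the results that follow was not tested beyond the values given with them.

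Few ribosomal protein genes were called by edgeR with TMM scaling, and that share depended on the tool and the scaling. In edgeR with TMM, among the 79 genes, 2 rose and 2 fell, and 75 were not called, so that 5.06% were called, beside 34.7% of all genes tested. Without RpL37-2, 1 of 78 rose and 2 fell. RpL37-2 and RpS15Ab rose, beside 15.2% of all genes tested that rose, and RpL38 and RpL36 fell, beside 19.4% of all genes tested that fell. The median log2 fold change was 0.06 over the 79 genes and −0.04 over all genes tested. The median size of the change, whatever its sign, was 0.19 on the log2 scale for the ribosomal protein genes and 0.30 for all genes tested, and the 75th percentiles were 0.25 and 0.62.

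These smaller changes were measured about as precisely as those of other genes, with a median standard error of 0.118 for ribosomal protein genes and 0.116 for all genes tested. The 95% interval of the fold change lay within 1.5-fold in both directions for 63 of the 79 genes and within 2-fold for 76. Leaving aside RpL37-2, fitted log2 fold changes ran from −0.71 to 0.33.

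**Figure D1:**
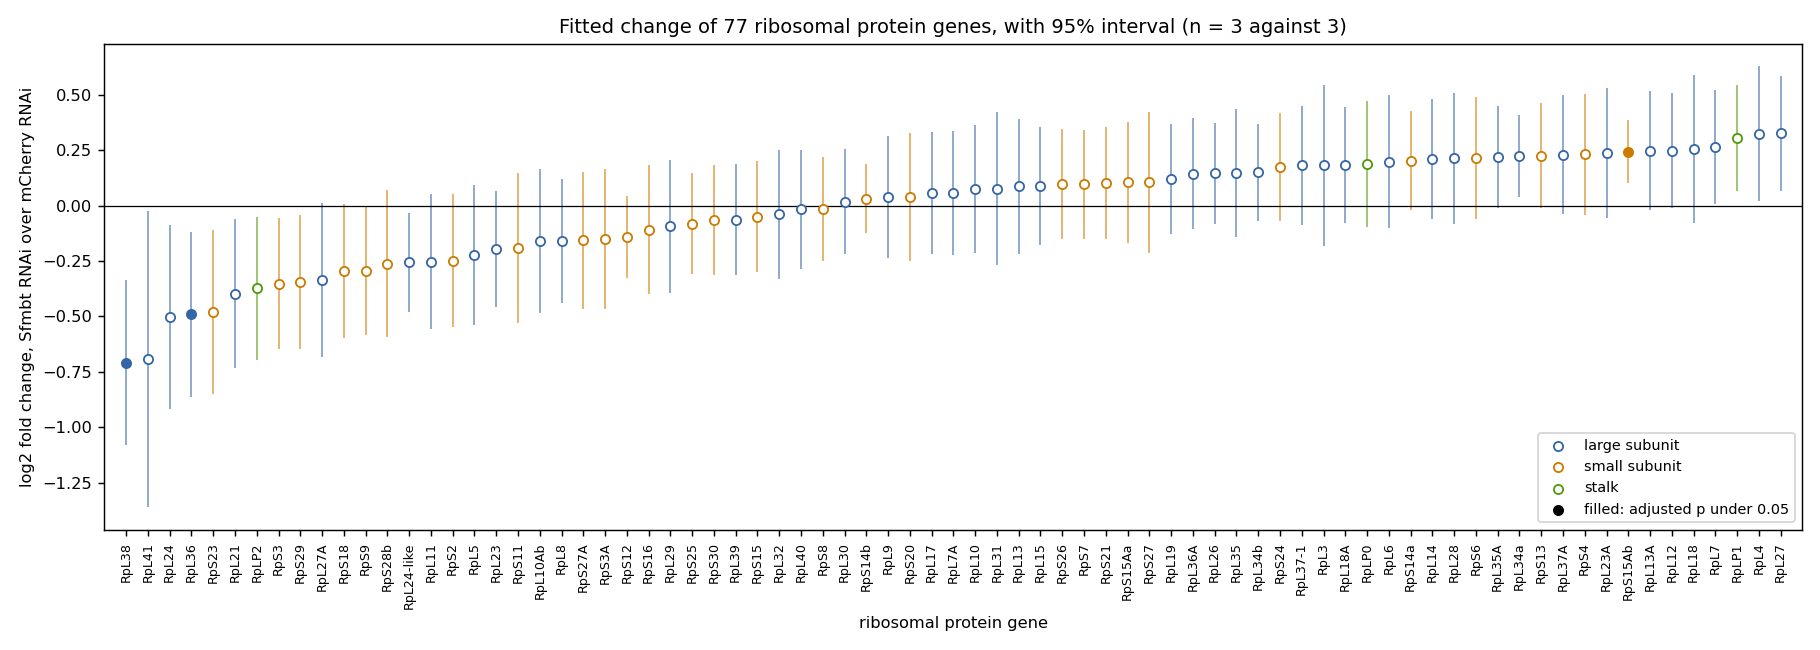
Fitted log2 fold change, Sfmbt RNAi over mCherry RNAi (vertical axis), of 77 ribosomal protein genes in order of size; bars are 95% intervals from 3 libraries a group, and filled points passed an adjusted p of 0.05. The order runs from RpL38 at −0.71 to RpL27 at 0.33, and most intervals cross 0; RpL37-2 and 1 gene not reported by name are not drawn.

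The number called depended on the test and the scaling. DESeq2 called 27 of the 79 genes, 34.2%, beside 34.3% of the genes to which it gave an adjusted p, so that the family was called at about the same rate as other genes. It called 15 higher (19.0%, beside 16.2%) and 12 lower (15.2%, beside 18.1%), with a median log2 fold change of 0.08 over the family. With library totals as the only scaling, edgeR called 46.8% of the family, beside 40.3% of all genes tested. At an unadjusted p under 0.05, 18 of the 79 genes passed in edgeR, 7 higher and 11 lower in Sfmbt RNAi (22.8%, beside 45.7% of all genes tested), and 11 genes had an edgeR adjusted p between 0.05 and 0.1. The 3 Sfmbt RNAi libraries lay wholly above the 3 mCherry RNAi libraries for 23 genes (29.1%, beside 22.6% of all genes tested), and wholly below them for 13 genes (16.5%, beside 27.6%). For the other 43 genes the groups overlapped. With the log2 of each library's summed chorion CPM entered as a covariate, edgeR called 0 of the 79 genes and 118 of all genes tested (1.22%). Of the 79, 1 had an unadjusted p under 0.05, and the 4 genes called before had edgeR adjusted p-values of 0.139 to 0.608. Chorion sums did not overlap between the groups, so this fit can hardly separate them from the RNAi. For RpL38, RpL36, RpS15Ab and RpL37-2 the SE rose from 0.16, 0.16, 0.06 and 0.74 to 0.37, 0.36, 0.13 and 1.24. Their log2 fold changes in that fit were −0.78, −0.51, 0.21 and 5.33.

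Within the large subunit, RpL38 had the lowest fold change of the family. The gene is a Minute locus. It had 1297, 1150 and 934 CPM in Sfmbt RNAi replicates 1 to 3, against 1583, 2072 and 1869 CPM in mCherry RNAi replicates 1 to 3. Every Sfmbt RNAi library was below every mCherry RNAi library, and the log2 fold change was −0.71 ± 0.16 SE (edgeR adjusted p = 0.0136). The call was lost without mCherry RNAi replicate 2 (log2 fold change −0.62, edgeR adjusted p = 0.059, against 0.012 to 0.0499 without any other single library).

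RpL36, another Minute gene of the large subunit, had 1368, 1296 and 946 CPM in Sfmbt RNAi replicates 1 to 3 and 1541, 1843 and 1688 CPM in mCherry RNAi replicates 1 to 3. The groups did not overlap, and the log2 fold change was −0.49 ± 0.16 SE at an edgeR adjusted p of 0.0488, just inside the threshold. Leaving out any library other than Sfmbt RNAi replicate 1 ended this call, at edgeR adjusted p-values of 0.055 to 0.16, and so did scaling by library totals alone (edgeR adjusted p = 0.147) and a filter of 1 CPM in 3 libraries (edgeR adjusted p = 0.054).

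RpL41, which codes for a very short basic peptide, had almost the same fold change as RpL38 with a larger spread. It had 3674, 3300 and 1795 CPM in Sfmbt RNAi replicates 1 to 3, against 3697, 5333 and 5140 CPM in mCherry RNAi replicates 1 to 3. Sfmbt RNAi replicate 1 and mCherry RNAi replicate 1 were nearly equal, while Sfmbt RNAi replicate 3 was the lowest by far. The log2 fold change of −0.69 ± 0.28 SE was not called (edgeR adjusted p = 0.1002). The fold change was −0.44 with Sfmbt RNAi replicate 3 left out.

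RpL24 and RpL21 of the large subunit and RpS23 of the small subunit, which lies at the decoding centre, stood next in this order. Of these, RpS23 and RpL21 were chosen for naming after their values were seen. Log2 fold changes were −0.50 for RpL24, −0.48 for RpS23 and −0.40 for RpL21, none called (edgeR adjusted p = 0.0641, 0.0517 and 0.0682). Each had its 3 Sfmbt RNAi libraries below the 3 mCherry RNAi libraries.

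At the other end, RpL27 and RpL4 of the large subunit, likewise named after their values were seen, had the highest fitted changes after RpL37-2. RpL27 averaged 1218 ± 146 CPM in Sfmbt RNAi and 972 ± 33.6 CPM in mCherry RNAi (SD, n = 3 each), with a fitted log2 change of 0.33 that was not called (edgeR adjusted p = 0.057). RpL4 averaged 2233 ± 308 CPM in Sfmbt RNAi and 1784 ± 112 CPM in mCherry RNAi (SD, n = 3 each), with a fitted log2 change of 0.32 (edgeR adjusted p = 0.093). The fitted log2 change of RpL7 was 0.26 (edgeR adjusted p = 0.102).

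Over the 46 genes of the large subunit the median log2 fold change was 0.09, with 30 values above 0 and 16 below it, and 3 genes were called. Over the 30 genes of the small subunit it was −0.06, with 13 above 0 and 17 below, and 1 gene was called. Without RpL37-2 the large subunit ran from −0.71 to 0.33 and the small subunit from −0.48 to 0.24, so the ranges overlapped.

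Among the small subunit genes, RpS3, which lies at the mRNA entry channel, averaged 1786 ± 217 CPM in Sfmbt RNAi and 2281 ± 152 CPM in mCherry RNAi (SD, n = 3 each; log2 fold change −0.35, edgeR adjusted p = 0.066). RpS2, the product of string of pearls, whose mutations arrest oogenesis, averaged 2312 ± 307 CPM in Sfmbt RNAi and 2746 ± 77.0 CPM in mCherry RNAi (SD, n = 3 each; log2 fold change −0.25, edgeR adjusted p = 0.174). RpS6, the substrate of S6 kinase, averaged 1200 ± 163 CPM in Sfmbt RNAi and 1035 ± 32.6 CPM in mCherry RNAi (SD, n = 3 each; log2 fold change 0.21, edgeR adjusted p = 0.199). None of these genes was called. The ubiquitin fusion genes RpS27A and RpL40 had log2 fold changes of −0.16 and −0.02, with overlapping groups.

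The stalk genes lay on both sides of 0. RpLP1 averaged 1485 ± 135 CPM in Sfmbt RNAi and 1203 ± 33.9 CPM in mCherry RNAi (SD, n = 3 each; log2 fold change 0.30, edgeR adjusted p = 0.0555). RpLP2 averaged 1829 ± 208 CPM in Sfmbt RNAi and 2370 ± 286 CPM in mCherry RNAi (SD, n = 3 each; log2 fold change −0.37, edgeR adjusted p = 0.071). For RpLP0, the base to which P1 and P2 bind, the fitted log2 change was 0.19 (edgeR adjusted p = 0.272). Neither P1 nor P2 passed the test, and the difference between their changes was not tested.

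The Sfmbt RNAi libraries differed among themselves across the whole family. Sfmbt RNAi replicate 1 was the highest of its 3 libraries for all 78 genes other than RpL37-2, beside 37% of the other tested genes. Sfmbt RNAi replicate 3 was the lowest for 64 of the 78, beside 34.9% of the other tested genes. The median log2 difference from the mCherry RNAi mean was 0.26, −0.01 and −0.10 in Sfmbt RNAi replicates 1 to 3, and between −0.02 and 0.02 in the mCherry RNAi replicates, which make up that mean and so lie near 0 by construction. Taken about each group's own mean, the SD of a gene's log2 CPM over 3 libraries had a median of 0.18 in Sfmbt RNAi and 0.06 in mCherry RNAi over the 78 genes, and was larger in Sfmbt RNAi for 75 of them. Over 9407 other tested genes read in every library these medians were 0.16 in Sfmbt RNAi and 0.11 in mCherry RNAi, with 64.5% larger in Sfmbt RNAi. Some of the marker lists followed the same order in Sfmbt RNAi replicates 1 to 3. Muscle sheath genes summed to 1790, 1426 and 576 CPM there, against 1111 to 1489 CPM in mCherry RNAi, and fat body genes to 731, 524 and 153 CPM, against 287 to 641 CPM. Hemocyte genes summed to 59.3, 44.0 and 19.1 CPM in Sfmbt RNAi, against 24.7 to 35.2 CPM in mCherry RNAi, and yolk protein genes to 20900, 18191 and 12929 CPM, against 12367 to 14197 CPM. Other lists did not follow that order. In Sfmbt RNAi replicates 1 to 3, digestive enzyme genes summed to 1.44, 273 and 50.2 CPM, and chorion genes to 7547, 20193 and 12881 CPM. Vitelline membrane genes summed to 11117, 12204 and 8122 CPM there, and germline genes to 3152, 2663 and 2769 CPM. The part of any of these lists in the order of the libraries was not tested. Without Sfmbt RNAi replicate 1 edgeR called 11 genes lower in place of 2 (13.9%, beside 14.4% of all genes tested in that fit, which is about the background): RpL21, RpL24, RpL24-like, RpL36, RpL38, RpLP2, RpS3, RpS18, RpS23, RpS28b and RpS29.

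**Figure D2:**
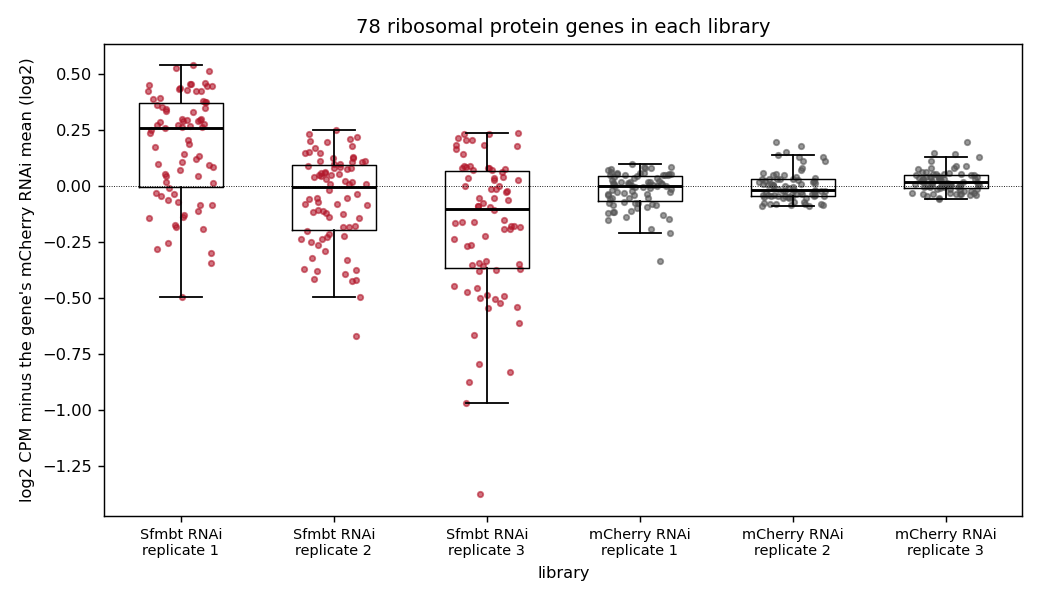
Log2 CPM of each of 78 ribosomal protein genes minus the gene's mean over the mCherry RNAi libraries (vertical axis), by library; boxes give the median and quartiles, and points are genes. Sfmbt RNAi replicate 1 is shifted upward, with a median of 0.26, and replicate 3 downward, with a median of −0.10; the mCherry RNAi libraries lie near 0 because their mean is the zero line.

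The family took up a large part of each library. The 79 genes held 11.3, 9.80 and 9.41% of all counted fragments in Sfmbt RNAi replicates 1 to 3, against 9.03, 9.06 and 9.29% in mCherry RNAi replicates 1 to 3. All 3 Sfmbt RNAi libraries were higher by this measure. Transcripts of the mitochondrial genome held less of the Sfmbt RNAi libraries, 9.43, 11.4 and 6.65%, against 14.3, 18 and 16.9% in mCherry RNAi. Counted against nuclear genes alone, the family held 12.5, 11.1 and 10.1% in Sfmbt RNAi and 10.5, 11.1 and 11.2% in mCherry RNAi, and the groups overlapped. With eggshell and yolk genes taken out as well, the shares were 13.1, 11.8 and 10.5% in Sfmbt RNAi and 11.3, 12.1 and 12.1% in mCherry RNAi, again with overlap.

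The direction of the family as a whole therefore depended on the scale. Summed TMM-scaled levels were 107685, 91702 and 82920 CPM in Sfmbt RNAi and 96299, 99826 and 100732 CPM in mCherry RNAi, so replicate 1 was above and replicates 2 and 3 below all mCherry RNAi libraries. With library totals as the only scaling, 36 of the 79 genes (45.6%) were called higher and 1 lower by edgeR, beside 31.2% of all genes tested that were called higher. That scaling moved the median of all genes tested to 0.19 and that of the family to 0.28. The family's median minus that of all genes was 0.09 under TMM, RLE and library totals alike. Scaling shifts all genes by nearly the same amount, so this agreement is built in. The difference was 0.05 with DESeq2 over the genes it fitted, and −0.21 in the edgeR fit with the chorion covariate. Leaving out single libraries in edgeR gave 0.02 to 0.14. Summed over the 79 genes, levels were 228020, 195312 and 197489 TPM in Sfmbt RNAi and 173945, 169645 and 174710 TPM in mCherry RNAi. TPM divides by exon length and by the sum of all genes and is not TMM-scaled. All 3 Sfmbt RNAi libraries were higher on this scale. Many genes with a negative fitted change therefore had higher mean TPM in Sfmbt RNAi. RpS3 (3015 TPM in Sfmbt RNAi, 2937 TPM in mCherry RNAi) and RpLP2 (5796 and 5727 TPM) were among them. RpL38 and RpL41 were lower in Sfmbt RNAi on both scales.

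A measure that does not depend on the scaling is the level of each gene relative to the median of the family in the same library; it was added after the data were seen. RpL41 stood 1.41 ± 0.44 above that median in Sfmbt RNAi and 2.24 ± 0.31 in mCherry RNAi (log2 units, SD, n = 3 each). RpL38 stood 0.09 ± 0.11 above it in Sfmbt RNAi and 0.89 ± 0.22 in mCherry RNAi. RpLP2 stood 0.79 to 0.80 above it in Sfmbt RNAi and 1.11 to 1.46 above it in mCherry RNAi. In these genes the 3 Sfmbt RNAi libraries lay together below the 3 mCherry RNAi libraries, in replicate 1 as well as in replicate 3. All of them were among the lowest fold changes of the family in the same counts, so this direction was largely fixed by their choice.

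RpL24, RpL36, RpS23 and RpL21 had lower relative levels in Sfmbt RNAi too, by 0.49 to 0.60 log2 units. RpL27, RpL4, RpLP1 and RpL7 had higher ones, by 0.17 to 0.23 log2 units, and their groups did not overlap. These genes were taken from both ends of the order of fold changes, so the direction of these differences was fixed by their choice.

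**Figure D3:**
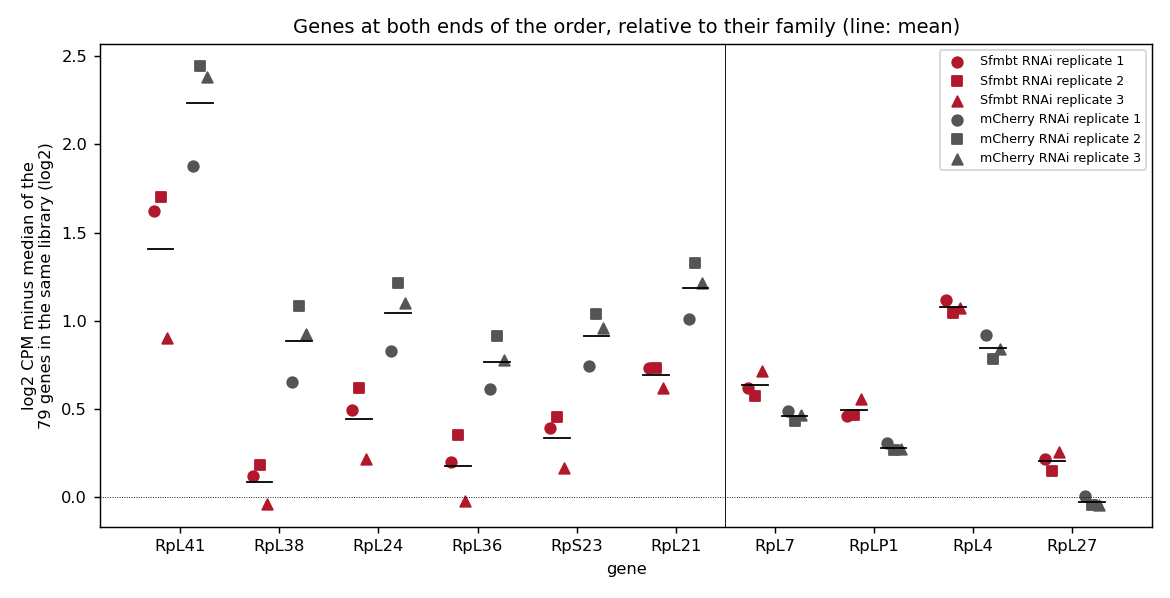
Log2 CPM minus the median of the 79 ribosomal protein genes in the same library (vertical axis), for 6 genes from the low end and 4 from the high end of the fold changes; lines are means of 3 libraries. For each gene drawn the Sfmbt RNAi points lie to one side of the mCherry RNAi points, in RpL38 at −0.04 to 0.18 against 0.65 to 1.08.

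Differences among the control libraries were set beside the changes, across genes. Over the 78 genes, the log2 difference of mCherry RNAi replicate 2 minus replicate 1 had a Pearson's r of −0.83 (Spearman's rho −0.76) with the Sfmbt RNAi mean minus mCherry RNAi replicate 3, differences that share no library. Over the other tested genes this r was −0.60, and over the 125 of them with at least 500 TPM it was −0.50. Among the controls, replicates 2 and 3 were the most alike over all genes tested (Spearman's rho 0.9949). The pairs with replicate 1 had 0.989 and 0.9825. Subtracting mCherry RNAi replicate 3 therefore favours a negative r by itself, so the r does not show a relation to the RNAi. Other divisions of the control libraries were not computed. Chorion sums, for comparison, were 35270, 50570 and 45373 CPM in mCherry RNAi replicates 1 to 3, and 7547, 20193 and 12881 CPM in Sfmbt RNAi replicates 1 to 3. Their part in these correlations was not tested. These are correlations across genes of the same libraries, which are not independent replicates.

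Levels per exon length differed widely among the genes. The family's median was 2044 TPM over the 6 libraries with quartiles of 1395 and 2616 TPM, and 75 of the 79 genes lay between 500 and 10000 TPM. In the order of all tested genes by mean TPM, 58 of the family were among the first 100 and 76 among the first 200. RpL41 led with a mean of 17244 TPM in Sfmbt RNAi and 21441 TPM in mCherry RNAi. RpS3A, RpL39, RpLP2 and RpS18 followed, with means of 5993, 5783, 5762 and 4910 TPM over the 6 libraries. The order of the 79 genes by mean TPM was similar in the groups (Spearman's rho 0.942 across genes), and RpL38 was number 48 in Sfmbt RNAi and number 15 in mCherry RNAi.

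Without RpL37-2, median log2 fold changes were 0.04 for 17 genes on 2L, −0.10 for 18 on 2R, 0.12 for 14 on 3L, 0.10 for 18 on 3R and 0.08 for 10 on X, and RpS3A, alone on chromosome 4, had −0.15. Across these 78 genes, Spearman's rho of the fold change with exon length was 0.21.

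The largest fold change of the family belonged to RpL37-2, a second gene for the L37 protein, at 2R:23100057-23100478 on the minus strand (build BDGP6.28). It had 67, 42 and 82 fragments in Sfmbt RNAi replicates 1 to 3, against 2, 0 and 0 in mCherry RNAi replicates 1 to 3. It was read in every Sfmbt RNAi library and hardly at all in mCherry RNAi. The summed 191 fragments in Sfmbt RNAi and 2 in mCherry RNAi gave a CPM ratio of 95.7 (exact 95% bounds 26.1 and 796, for counting error only) (edgeR adjusted p = 0.00116). The call held without any single library. The gene is in the family only through the group where it is high, so its rise is a description and not independent of the count minimum.

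By counted fragments, this rise added almost nothing to the pool of L37 transcripts. Fragments that map to several places were not counted, so the levels of both copies are uncertain. RpL37-2 stood at 7.75, 5.02 and 7.61 TPM in Sfmbt RNAi, which was 0.34 to 0.47% of the level of RpL37-1 in the same libraries. RpL37-1 averaged 1640 ± 160 TPM in Sfmbt RNAi and 1104 ± 58.0 TPM in mCherry RNAi (SD, n = 3 each). TPM are not TMM-scaled, and the log2 fold change of RpL37-1 on the CPM scale was 0.18 (edgeR adjusted p = 0.257). RpL37-2 had the lowest mean count of the 79 genes, 32.2, and stood nearest to the count minimum of 10.

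RpS15Ab was the other gene that rose, and it too is the minor copy of a pair. It had 62.5, 61.6 and 59.7 CPM in Sfmbt RNAi replicates 1 to 3, against 51.5, 50.1 and 53.7 CPM in mCherry RNAi replicates 1 to 3. The groups did not overlap, and replicates were close together, so a log2 fold change of 0.24 ± 0.06 SE was called (edgeR adjusted p = 0.0199). The call was lost without Sfmbt RNAi replicate 2, mCherry RNAi replicate 2 or mCherry RNAi replicate 3 (edgeR adjusted p = 0.0601, 0.103 and 0.0574). The major copy RpS15Aa averaged 2389 ± 193 TPM in Sfmbt RNAi and 1699 ± 153 TPM in mCherry RNAi (SD, n = 3 each). TPM are not TMM-scaled, and the log2 fold change of RpS15Aa on the CPM scale was 0.10 (edgeR adjusted p = 0.526).

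The other pairs of copies held no call. RpS14a and RpS14b, neighbours on X, had log2 fold changes of 0.20 and 0.03, and RpL34a and RpL34b had 0.22 and 0.15. RpL24-like, whose yeast relative Rlp24 acts in the assembly of the large subunit rather than in the finished ribosome, had −0.26 and overlapping groups. Fragments that map to several places were not counted per the file headers, so levels of near-identical copies rest on the parts that differ and are uncertain. Of the 4 genes below the count minimum, RpL10Aa had 0 fragments in every library. RpL7-like had 2, 0 and 3 fragments in Sfmbt RNAi and 2, 1 and 0 in mCherry RNAi. RpS28-like and RpS28a had 0 fragments in every Sfmbt RNAi library, and 2 and 3 fragments over the mCherry RNAi libraries.

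**Figure D4:**
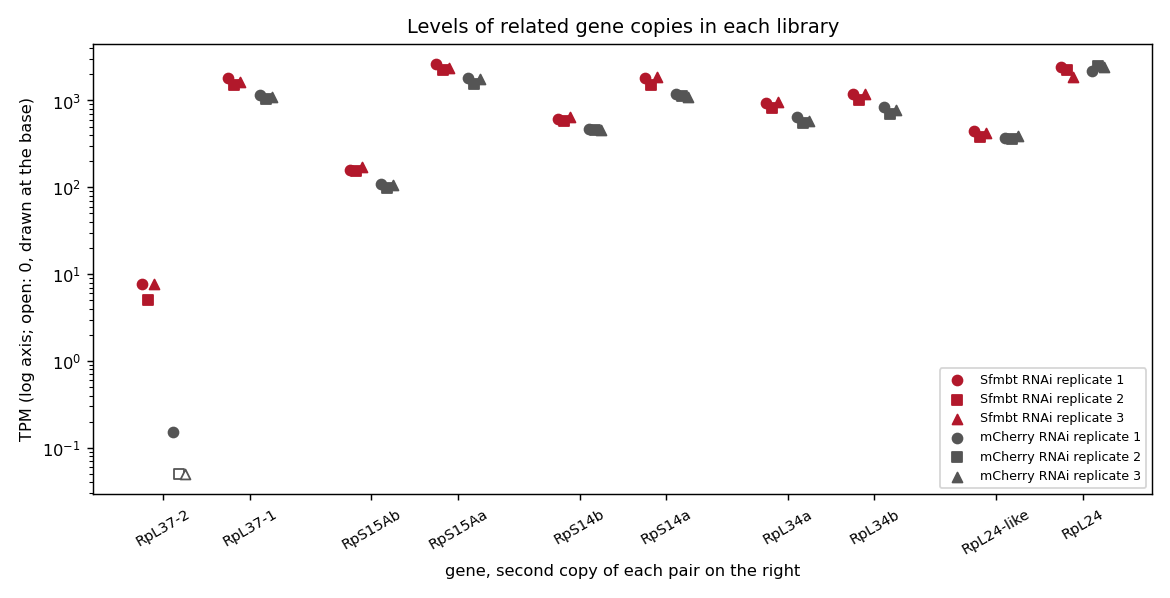
Levels in TPM (log axis) of 5 pairs of related genes in each of the 6 libraries, with the less abundant gene on the left of each pair. RpL37-2 lies at 5.02 to 7.75 TPM in Sfmbt RNAi, against 0.15 TPM in mCherry RNAi replicate 1 and 0 in the other mCherry RNAi libraries, and far below RpL37-1 in every library.

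A PhoRC summit was assigned to a single gene of the family. The authors' deposited table lists 352 summits assigned to 289 genes, beside 17768 genes in the count table. RpL37-1 was the only one of the 79 genes with a summit, and the family's share was not tested against that of all genes. In the authors' deposited table its summit lies at X:15137467 (build BDGP6), 1900 bases downstream of the gene start and 403 bases past its end. In the authors' deposited table this summit has 3.14 RPM for Pho, 0.519 RPM for GFP-Sfmbt and 0.378 RPM for untagged chromatin, beside medians of 4.52, 0.886 and 0.336 RPM over all summits. RpL37-2, RpS15Ab, RpL38 and RpL36, the genes called in RNA, have no summit in the authors' deposited table, like most genes in the count table. Outside the 79 genes, the authors' deposited table also assigns summits to RpS5b, set aside by the rule, and to sta, a small subunit component. They lie 34 bases upstream of the RpS5b start and 144 bases downstream of the sta start. Pho, GFP-Sfmbt and untagged chromatin had 20.9, 2.15 and 0.672 RPM at RpS5b, and 3.39, 0.642 and 0.714 RPM at sta.

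Other genes of the translation machinery were set beside the family. Of 29 translation initiation genes, 6 rose and 2 fell, with a median log2 fold change of 0.15. That is 27.6% called, beside 34.7% of all genes tested. The scaffold eIF4G1 (0.57, edgeR adjusted p = 0.0280) and eIF5B, which joins the subunits (0.46, edgeR adjusted p = 0.0237), rose, and Thor, the fly 4E-BP that restrains cap-dependent initiation, fell (−0.94, edgeR adjusted p = 0.0198). Of 8 elongation and termination genes, the release factor gene eRF3 alone was called, and it rose (0.46, edgeR adjusted p = 0.0478). Of 5 ribosome-associated genes, Tctp alone was called, and it fell (−0.35, edgeR adjusted p = 0.0488). sta and Rack1, small subunit components whose symbols do not follow the RpS pattern, had log2 fold changes of −0.05 and 0.05 with overlapping groups.

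Genes that build ribosomes held calls in both directions. Of 31 ribosome biogenesis genes, 4 rose and 2 fell (median 0.17). That is 19.4% called, beside 34.7% of all genes tested. U3-55K (−0.33, edgeR adjusted p = 0.0109) and RIOK2 (−0.27, edgeR adjusted p = 0.0191) fell. Gar1, of the pseudouridylation snoRNPs (0.70, edgeR adjusted p = 0.0135), Ns2, a nucleolar GTPase (0.56, edgeR adjusted p = 0.0092), and Fib, the rRNA methylase fibrillarin (0.50, edgeR adjusted p = 0.049), rose. Of 11 RNA polymerase I genes, 3 rose and 1 fell (median 0.28), so that 36.4% were called, which is about the share of all genes tested. Polr1F fell (−0.26, edgeR adjusted p = 0.0182). Polr1A and Polr1B, the largest subunits, rose by 0.74 and 0.58 (edgeR adjusted p = 0.0153 and 0.0214), and udd, of the rDNA promoter factor, by 0.44 (edgeR adjusted p = 0.024).

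Of 14 regulators of growth and of ribosomal protein genes, 4 were called and rose (28.6%, median 0.18). larp, which binds mRNAs of the terminal oligopyrimidine class (0.59, edgeR adjusted p = 0.0082), Trf2, the TBP-related factor that serves ribosomal protein promoters (0.45, edgeR adjusted p = 0.024), and gig, the fly TSC2, which restrains Tor signalling (0.37, edgeR adjusted p = 0.0109), were among them. Of 71 mitochondrial ribosomal protein genes, 3 rose and 16 fell, with a median of −0.06. That is 26.8% called. These counts are descriptions beside the 34.7% called among all genes tested, and no difference between lists was tested.

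**Figure D5:**
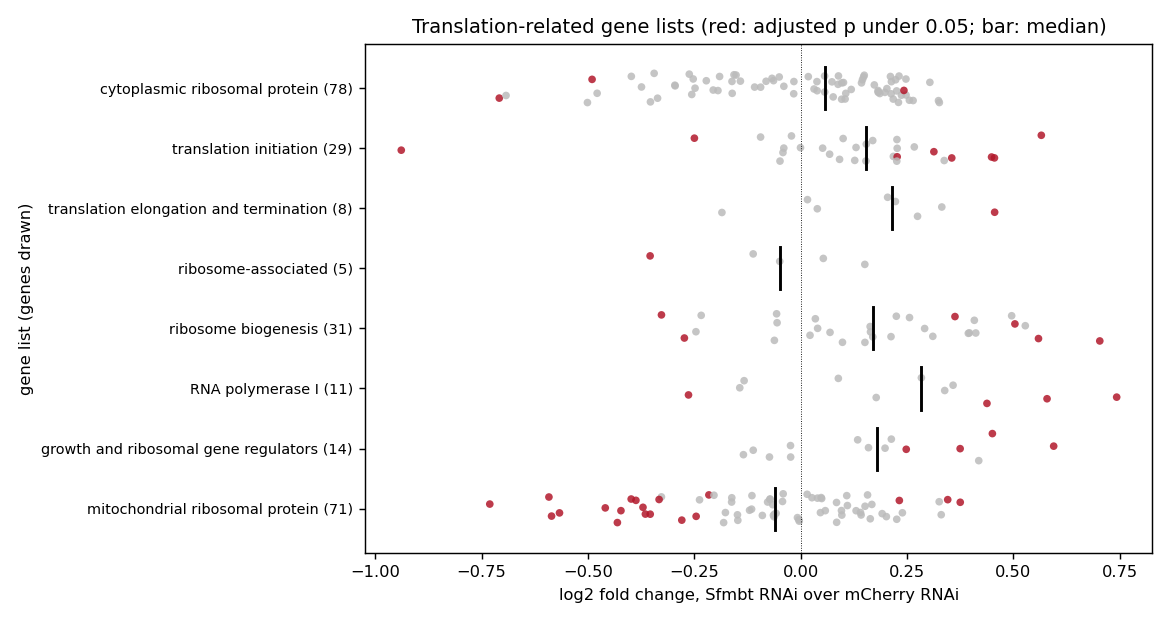
Log2 fold changes, Sfmbt RNAi over mCherry RNAi (horizontal axis), of single genes in 8 lists; red points passed an adjusted p of 0.05 in edgeR and bars are list medians. The cytoplasmic ribosomal protein genes have 3 red points among 78 drawn, and the mitochondrial ones 19 among 71.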

How the data were processed

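The deposited gene table holds raw counts per gene, produced by the authors' featureCounts 1.6.3 run, per the file headers. STAR 2.7.2a is named in the submitters' processing notes. Libraries were prepared with a TruSeq stranded kit from polyA RNA, per the labels. The deposited peak table holds RPM values of the authors, and 1 value per summit and ChIP group, with no replicate spread. Its log2 fold changes and p-values were not used. Count columns lettered C were read as mCherry RNAi and those lettered A, by elimination, as Sfmbt RNAi.

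Of 17768 gene IDs 17671 matched a symbol. Tests used edgeR 4.0.16 in R 4.3.3 with limma 3.58.1: filterByExpr with a minimum count of 10, TMM scaling, robust dispersions and the quasi-likelihood F-test on group alone, adjusted over all 9667 genes tested. Standard errors derive from the F statistic. TPM were computed from counts and exon length, without TMM scaling. The fit was tested on simulated data. DESeq2 1.42.0, other scalings and filters, a replicate block, a chorion covariate and leaving out each library were alternatives.

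Named were called genes, the 5 highest and 5 lowest by TPM, gene copies, stalk genes and some classical genes; from other lists, up to 3 called genes with the largest change. The members and lists were chosen with earlier results of these data known. Tor and nos were not analysed here, and 1 gene that the rule names is not reported here by name. Replicates of a group differed by more than sampling noise (smallest chi-square divided by genes, 26.8).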

Additional observations from a re-analysis of the deposited data

How the results depend on the processing

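The number of ribosomal protein genes called higher was 2 with TMM, 5 with RLE scaling, 36 with library totals, 5 with a filter of 1 CPM in 3 libraries, 15 with DESeq2 and 0 when the chorion level entered as a covariate. The number called lower was 2 with TMM, 1 with library totals, 1 with the 1 CPM filter, 12 with DESeq2, 0 in the chorion fit and 1 in the fit with the replicate block. Among all genes tested, 34.7% were called with TMM (5.06% of the family), 34.1% with RLE scaling (10.1%), 40.3% with library totals (46.8%), 38.1% with the 1 CPM filter (7.59%) and 34.3% with DESeq2 (34.2%), or 38.8% of the genes that edgeR tested. The low share called in the family was thus not seen with library totals or DESeq2. The family's median log2 fold change was 0.28 with library totals and −0.25 in the chorion fit, where 118 genes were called of all tested and the covariate is not independent of the groups. Leaving out single libraries gave 1756 to 3295 genes called of all tested, 1 to 2 ribosomal protein genes called higher, 0 to 11 called lower, and medians of −0.01 to 0.13. Genes that were not called changed sign as follows. RpL40 was at 0.013 with RLE scaling, 0.010 with DESeq2 and 0.21 with library totals, and at −0.093 to 0.067 with single libraries left out. With library totals, RpL10Ab was at 0.065, RpL39 at 0.17, RpS27A at 0.071 and RpS3A at 0.076. In the chorion fit, RpL34a was at −0.031, RpL34b at −0.17, RpL37-1 at −0.15, RpL7 at −0.10, RpLP0 at −0.19, RpS14a at −0.083, RpS14b at −0.018, RpS15Aa at −0.20 and RpS6 at −0.17. The cause was not tested. Same-numbered libraries had correlations of deviations of 0.432, 0.305 and 0.073, so the numbers were not taken to pair the samples, and not every library correlated best with its own number. With the replicate block 2959 genes were called of all tested, and RpL27 and RpL37-2 higher and RpL38 lower in the family, while RpL36 and RpS15Ab lost their calls (edgeR adjusted p = 0.0581 and 0.0532). With 3 libraries a group, the 95% interval bounded the change within 1.5-fold for 63 of the 79 genes.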
